A study of Mus musculus with 10 samples.

Results

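Transcript levels of the 4 mammalian Notch receptors (*Notch1*, *Notch2*, *Notch3* and *Notch4*) and of 4 of their ligands (*Dll1*, *Dll4*, *Jag1* and *Jag2*) are described in mouse hematopoietic cells that were driven toward the T lineage in culture. The members were taken by gene symbol and are 8 of the 24062 gene rows of the count tables. LSK cells, the Lin-SCA-1+KIT+ stem and progenitor fraction of marrow, were the starting population of all 10 libraries, and the study took them from C57BL/6J (Ly5.2) mice. DN1 (KIT++CD44+CD25-), DN2a (KIT++CD44+CD25+) and DN2b (KIT+CD44loCD25+) cells, with 2 libraries each, were sorted from cultures on a high density of an immobilized fusion of the Delta1 extracellular domain with IgG. The medium held SCF, FLT-3 ligand, IL-6 and IL-11. IL-7 was absent from the cultures that gave DN1 cells and present in those that gave both DN2 stages, so the step from DN1 to DN2 and IL-7 cannot be told apart. The control, labelled WT_IgG_d14 and called IgG here, consisted of LSK cells kept on human IgG without Notch ligand to day 14, with 4 libraries named D1, D2, R1 and R2, and the meaning of the letters is not given in the sources used here. The labels give a genotype for the IgG libraries and none for the DN libraries, and the IgG cultures, unlike the DN cells, are not described as sorted by stage. The study describes IL-7 for Delta1 cultures only, from day 14. Over IgG, ligand, sorting and, for the DN2 stages, IL-7 and later harvest cannot be told apart. No library of uncultured LSK cells is among the 10, so rose and fell compare a stage with IgG and not with the starting cells. The DN libraries are called rep 1 and rep 2 for the earlier and the later of the years in their labels, and all libraries came from bulk populations of cultured cells.

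Notch receptors are cleaved by furin on their way to the cell surface and are held there as heterodimers. Binding of a Delta or Jagged ligand on a neighbouring cell, pulled by endocytosis, exposes the receptor to an ADAM protease and then to gamma-secretase, and the freed intracellular domain joins RBPJ and MAML proteins on target genes. NOTCH1 is the receptor that T lineage entry in the thymus depends on, and DLL4 on thymic epithelium is its main ligand there. NOTCH2 is best known in blood for marginal zone B cells and for some myeloid cells, NOTCH3 is expressed in immature thymocytes and *Notch3* is known as a Notch target itself, and NOTCH4 is mostly an endothelial receptor. The Delta1 of these cultures was added as protein, so counts of *Dll1* are RNA of the cells themselves.

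Between 12354635 and 35367925 reads per library were counted on genes, and levels are given as CPM, counts scaled to a common library size, after TMM scaling, a correction for differences in library composition. On this scale 3 counts, taken as the limit of detection, correspond to 0.0881 to 0.239 CPM across the libraries. *Il2ra*, which encodes CD25, followed the gates, with 1.18 ± 0.828 CPM (SD, n = 4) in IgG, then 21.1 ± 2.996 (DN1), 1397 ± 320 (DN2a) and 1953 ± 316 (DN2b; SD, n = 2 each). The 8 T lineage markers summed to 1.90 to 8.63 CPM in IgG and to 325 to 4157 CPM in the DN libraries, and the 7 macrophage and monocyte markers summed to 2285 to 5658 CPM in IgG and to 9.31 to 65.8 CPM in the DN libraries. The 7 neutrophil markers summed to 19040 to 67830 CPM in IgG and to 0.934 to 63.0 CPM in the DN libraries, except DN1 rep 1 with 2382 CPM. The IgG cells thus carried abundant myeloid RNA, and in such bulk libraries fewer cells of a type and less RNA per cell cannot be told apart. DN1 rep 2 and DN2b rep 2 stood apart from the first replicates in some of the endothelial and stromal genes, and their values are given with the ligands. Nothing in the labels ties libraries of a group to separate mice, although the study speaks of independent LSK isolates, so p-values measure the spread between these libraries.

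**Figure D1:**
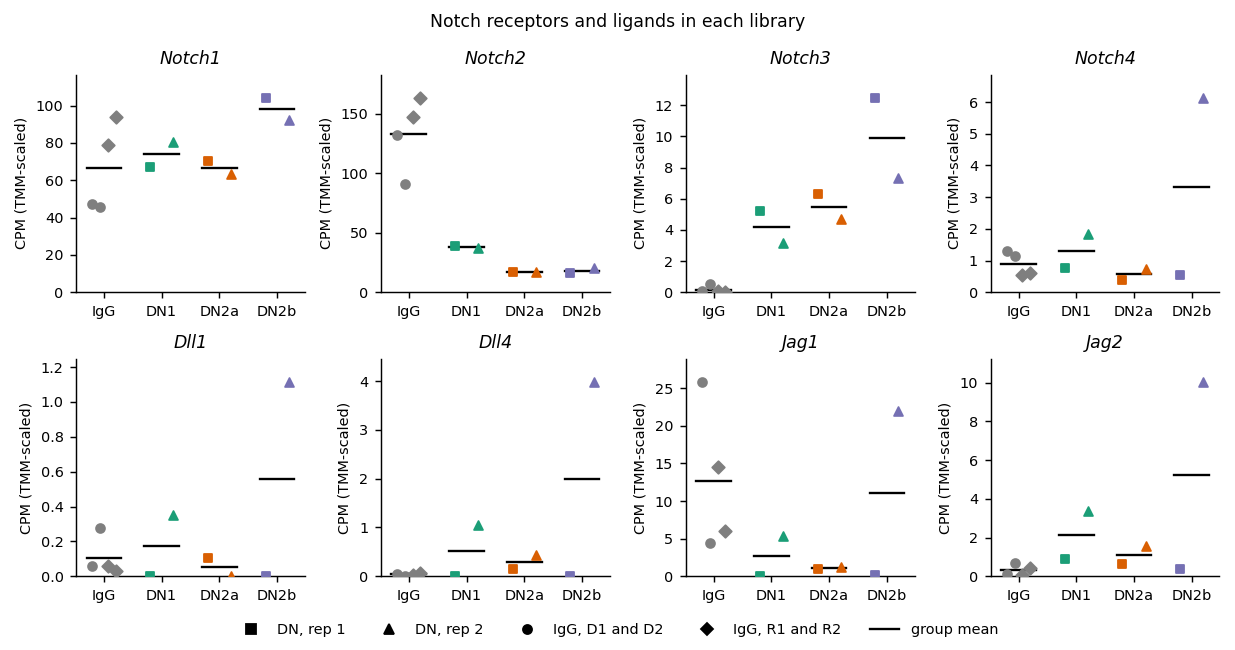
Level of each receptor (top row) and ligand (bottom row) in TMM-scaled CPM on a linear axis from 0, 1 point per library, with horizontal lines at the group means. *Notch2* lies at 90.4 CPM or above in every IgG library and at 39.1 CPM or below in every DN library, *Notch3* shows the opposite order, and the high points of *Notch4*, *Dll4* and *Jag2* belong to 1 library, DN2b rep 2.

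*Notch1* RNA was abundant in every library and was not called different from IgG in any DN stage. Its level was 67.1 CPM in DN1 rep 1, 80.4 in DN1 rep 2, 70.1 in DN2a rep 1, 63.1 in DN2a rep 2, 104 in DN2b rep 1 and 92.5 in DN2b rep 2, and 47.2, 45.6, 79.1 and 94.1 CPM in IgG D1, D2, R1 and R2. The IgG libraries fell into a lower pair, D1 and D2, and a higher pair, R1 and R2, and their range overlapped that of every DN stage. The mean was 66.5 ± 24 CPM in IgG (SD, n = 4) and 73.8 ± 9.39, 66.6 ± 4.91 and 98.3 ± 8.24 CPM in the successive DN stages (SD, n = 2 each). The log2 fold change (log2FC) over IgG was 0.15 (SE 0.31) in DN1, 0.00 (SE 0.31) in DN2a and 0.56 (SE 0.31) in DN2b, and none passed an adjusted p of 0.05 (0.744, 0.996 and 0.160 by the quasi-likelihood test of edgeR, adjusted by Benjamini-Hochberg across 12221 genes). Against IgG D1 and D2 alone, *Notch1* passed in DN2b, with a log2FC of 1.05 (adjusted p = 0.0135). This was the only 1 of 21 alternative fits in which it passed there, and its log2FC ranged from 0.19 to 1.05 over them. The gene spans chr2:26457903-26516663 (minus strand) of mm10, and annotated exons of 2 transcripts on the other strand overlap its exons.

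*Notch2* was the receptor called lower in the DN stages than in IgG. The controls held 132, 90.4, 147 and 163 CPM in IgG D1, D2, R1 and R2. In the DN libraries it was read at 39.1 and 36.9 CPM in DN1 rep 1 and rep 2, at 17.1 and 17.2 CPM in DN2a, and at 16.0 and 19.9 CPM in DN2b. Every DN library lay below every IgG library, both DN1 libraries lay above all 4 DN2 libraries, and DN2a and DN2b overlapped. From 133 ± 31.1 CPM (SD, n = 4) in IgG the mean was 3.50-fold lower in DN1, 7.75-fold lower in DN2a and 7.41-fold lower in DN2b. The log2FC values were -1.81 (SE 0.27, adjusted p = 0.00177), -2.95 (SE 0.29, adjusted p = 0.000178) and -2.89 (SE 0.29, adjusted p = 0.000169, edgeR). *Notch2* stayed past the threshold in all 21 alternative fits of each comparison, with a highest adjusted p of 0.0258 in DN1, 0.0048 in DN2a and 0.0040 in DN2b. Macrophage and neutrophil markers were higher in the same IgG libraries, as given above, and their part in the level of *Notch2* was not tested. The gene lies at chr3:98013527-98150361 (plus strand) of mm10.

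*Notch3* was the receptor called higher in the DN stages than in IgG. Its counts were 1, 11, 2 and 1 in IgG D1, D2, R1 and R2, or 0.0560, 0.507, 0.0587 and 0.0305 CPM, so 3 of the 4 control libraries were at the limit of detection. It was read at 5.19 and 3.14 CPM in DN1 rep 1 and rep 2, at 6.30 and 4.68 CPM in DN2a, and at 12.5 and 7.33 CPM in DN2b. All DN libraries lay above all IgG libraries, and within each year the order was DN1, DN2a, DN2b. *Notch3* reached 1 CPM in 6 libraries, all of them DN. It thus passed the filter of 1 CPM in at least 2 libraries through the libraries where it was high. The log2FC over IgG was 4.70 (SE 0.88, adjusted p = 0.00481) in DN1, 5.10 (SE 0.89, adjusted p = 0.00211) in DN2a and 5.94 (SE 0.91, adjusted p = 0.00123) in DN2b, or 25.9-fold, 34.2-fold and 61.6-fold. Without IgG D2 the controls were all at the limit, and the fitted log2FC, then dependent on the prior count, was 6.29, 6.69 and 7.54. *Notch3* passed in all 21 alternative fits of each comparison, with a highest adjusted p of 0.0436, 0.0226 and 0.0146. The gene lies at chr17:32120820-32166852 (minus strand) of mm10, and an annotated antisense transcript overlaps 488 bases of its exons.

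The deposited counts say nothing of which promoter bases were used, but the study concerns promoter CpG content, so the promoters of the 2 receptors called in opposite directions are shown, with that of *Notch4*, which holds the fewest CpG dinucleotides among the members. The choice was made with values known. Each line gives the 250 bases before the RefSeq start on GRCm38.p6, 5′ to 3′ on the gene's strand, with each CpG in capitals. The *Notch2* stretch is chr3:98013288-98013537 (plus strand), that of *Notch3* is chr17:32166891-32167140 (minus strand) and that of *Notch4* is chr17:34564045-34564294 (plus strand).
Notch2: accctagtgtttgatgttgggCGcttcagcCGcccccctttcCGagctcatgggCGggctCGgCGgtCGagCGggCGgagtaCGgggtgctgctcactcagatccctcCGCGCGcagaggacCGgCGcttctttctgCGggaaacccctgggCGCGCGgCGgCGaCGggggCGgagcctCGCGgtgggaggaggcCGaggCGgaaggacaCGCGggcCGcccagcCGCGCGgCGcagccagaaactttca
Notch3: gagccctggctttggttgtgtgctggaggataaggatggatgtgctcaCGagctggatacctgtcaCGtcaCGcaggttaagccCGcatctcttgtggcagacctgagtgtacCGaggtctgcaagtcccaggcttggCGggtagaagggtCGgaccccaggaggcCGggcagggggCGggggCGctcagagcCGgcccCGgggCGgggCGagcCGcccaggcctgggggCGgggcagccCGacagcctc
Notch4: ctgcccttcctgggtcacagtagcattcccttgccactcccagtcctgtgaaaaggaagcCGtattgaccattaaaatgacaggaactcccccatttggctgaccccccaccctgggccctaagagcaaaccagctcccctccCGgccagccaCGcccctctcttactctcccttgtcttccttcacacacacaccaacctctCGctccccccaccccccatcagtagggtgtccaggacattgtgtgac
These stretches held 34, 17 and 4 CpG dinucleotides. Over the 300-base windows from 250 bases before to 50 after the start, the ratio of observed to expected CpG was 1.04 for *Notch2*, 0.706 for *Notch3* and 0.214 for *Notch4*, and 0.660 for *Notch1*. All 8 members matched RefSeq, with 9 promoters in all since *Dll1* has 2, and 8 of these 9 lay above 0.384, the median over 32851 mouse promoters. The ligands ran from 0.595 for *Dll4* to 1.14 for *Jag2*. The letters TGGGAA or, on the other strand, TTCCCA, the core read by RBPJ that overlaps the core read by Ikaros factors, were in 0 of the 9 member windows and in 25.6% of all promoter windows of the same length.

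*Notch4* RNA was sparse. It was read at 1.29, 1.15, 0.529 and 0.610 CPM in IgG D1, D2, R1 and R2. It was read at 0.779 and 1.84 CPM in DN1 rep 1 and rep 2, 0.394 and 0.743 CPM in DN2a, and 0.534 and 6.13 CPM in DN2b. DN2b rep 2 held the highest level and DN2b rep 1 lay within the IgG range, so the groups overlapped. The log2FC over IgG was 0.55 (SE 0.89) in DN1, -0.66 (SE 0.96) in DN2a and 1.90 (SE 0.87) in DN2b, with adjusted p of 0.667, 0.596 and 0.105 (edgeR). Without DN2b rep 2 the last value was -0.72, and without DN2b rep 1 it was 2.79 and passed (adjusted p = 0.0330).

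The balance between *Notch1* and *Notch2* separated the DN libraries from the controls. A ratio of 2 genes within a library does not depend on the scaling between libraries. There were 0.358, 0.504, 0.539 and 0.577 counts of *Notch1* per count of *Notch2* in IgG D1, D2, R1 and R2. The ratio in rep 1 and rep 2 was 1.72 and 2.18 for DN1, 4.09 and 3.66 for DN2a, and 6.50 and 4.64 for DN2b. The ranges did not overlap between DN and IgG, nor between DN1 and the DN2 stages. The mean log2 ratio was 1.79 ± 0.713 (SD, n = 6) in the DN libraries and -1.04 ± 0.306 (SD, n = 4) in IgG, a 7.09-fold difference (two-sided exact permutation test over libraries, p = 0.00952, the smallest that 6 against 4 libraries can give). That p treats the 6 DN libraries as independent, although DN libraries of the same year may share an LSK isolate. With the DN libraries averaged by year, the exact permutation test gave p = 0.133, the smallest that 2 against 4 values can give, so this design could not then reach 0.05.

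Levels of different receptors were compared per kilobase of the principal transcript (9488 bases for *Notch1*, 10500 for *Notch2*, 8016 for *Notch3* and 6591 for *Notch4*). On this scale the 4 receptors summed to 17.7, 13.7, 22.4 and 25.5 CPM per kb in IgG D1, D2, R1 and R2. The sums in rep 1 and rep 2 were 11.6 and 12.7 CPM per kb (DN1), 9.86 and 8.99 (DN2a), and 14.1 and 13.5 (DN2b). All DN1 and DN2a sums lay below every control after TMM scaling, while the lowest control sum lay below that of DN2b rep 1 and above that of DN2b rep 2. With scaling to library size only, both DN1 sums lay above that of IgG D2, and the DN2a sums stayed below every control. *Notch2* made up 60.8% to 70.8% of the receptor sum in the IgG libraries and 10.8% to 32.2% in the DN libraries. The share of *Notch1* was 28.1% to 38.8% in IgG and 61.2% to 77.6% in DN libraries. *Notch3* reached at most 0.464% in IgG and made up 3.09% to 11.0% in DN libraries, and in DN2b rep 1 its 11.0% stood beside 10.8% for *Notch2*. In IgG the order of mean levels per length was *Notch2* (12.7 ± 2.97 CPM per kb), *Notch1* (7.01 ± 2.53), *Notch4* (0.136 ± 0.0579) and *Notch3* (0.0204 ± 0.0287; SD, n = 4), and this order held within each control library, although the ranges of *Notch2* and *Notch1* over the libraries overlapped. In the DN groups *Notch1* led in every library and *Notch2* was next, except in DN2b rep 1.

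**Figure D2:**
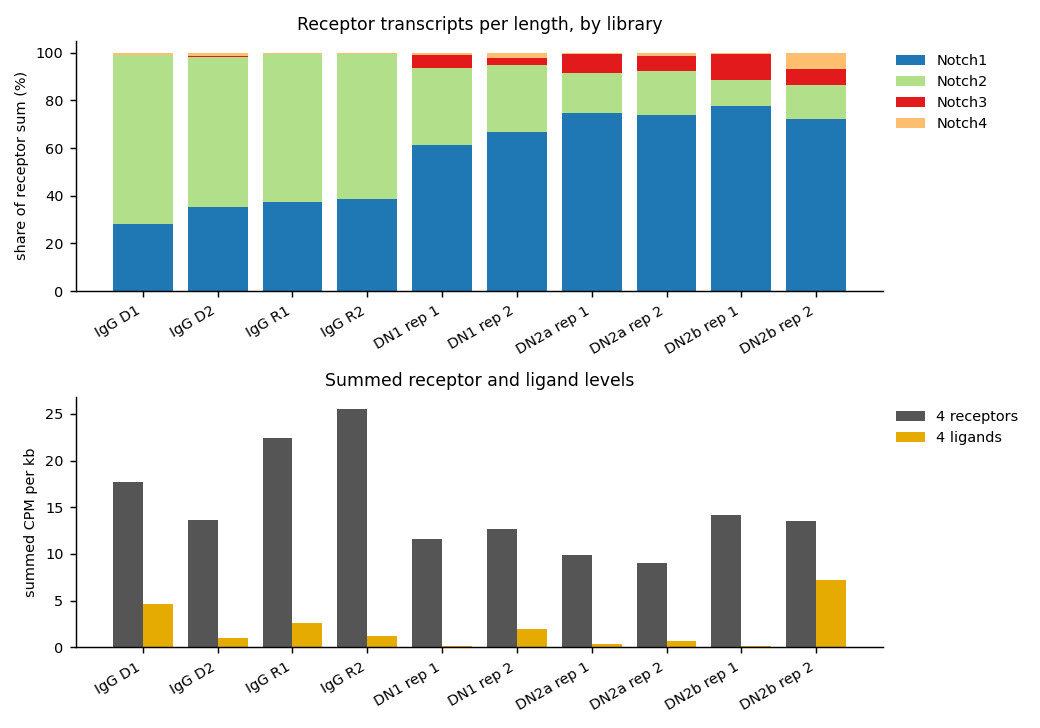
Top, share of each receptor in the summed receptor level per library in percent (stacked bars); bottom, summed level of the 4 receptors and of the 4 ligands in CPM per kb. The IgG bars are mostly *Notch2* (60.8% to 70.8%) and the DN bars mostly *Notch1* (61.2% to 77.6%), and the ligand sum is highest in DN2b rep 2 at 7.26 CPM per kb.

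Of the 4 ligands, *Jag1* had the highest mean level per length in the controls (2.26 ± 1.75 CPM per kb, SD, n = 4), and for none of the 4 did all DN libraries lie on the same side of all controls. *Jag1*, a ligand of many epithelial, stromal and endothelial cells, was read at 25.8, 4.43, 14.6 and 5.98 CPM in IgG D1, D2, R1 and R2. It was read at 0 and 5.38 CPM in DN1 rep 1 and rep 2, 0.931 and 1.26 CPM in DN2a, and 0.133 and 21.98 CPM in DN2b. Both DN2a libraries lay below all controls, while DN2b rep 2 lay above 3 of the 4. The log2FC over IgG was -2.25 (SE 1.81), -3.54 (SE 1.98) and -0.20 (SE 1.62) in DN1, DN2a and DN2b, and none passed (adjusted p = 0.371, 0.168 and 0.929, edgeR). With the second replicates of DN1 and DN2b left out, an alternative chosen after seeing the data, *Jag1* was called lower in all 3 stages (adjusted p = 0.0184, 0.0150 and 0.0196). It then rested on 0 counts in DN1 rep 1 and 2 counts in DN2b rep 1. Within IgG, *Jag1* was higher in D1 and R1 than in D2 and R2, as were 5 of the 7 macrophage and monocyte markers, among them *Emr1* (F4/80) with 1110 and 506 CPM against 262 and 212 CPM. The monocyte marker *Ly6c2* ran the other way, with 469 and 569 CPM against 1909 and 712 CPM, and *Cd14* was highest in D2 at 385 CPM. The part of such cells in the level of *Jag1* was not tested.

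*Jag2*, the second Jagged ligand, was read at 0.112, 0.692, 0.0881 and 0.427 CPM in IgG D1, D2, R1 and R2. Its DN levels were 0.890 and 3.39 CPM in DN1 rep 1 and rep 2, 0.609 and 1.56 CPM in DN2a, and 0.400 and 10.04 CPM in DN2b. Both DN1 libraries lay above all controls and DN2b rep 1 lay within them. Before TMM scaling *Jag2* reached 1 CPM in 4 libraries, all of them DN, so it too passed the filter through libraries where it was high. The log2FC over IgG was 2.68 (SE 1.17, adjusted p = 0.109) in DN1, 1.68 (SE 1.20, adjusted p = 0.272) in DN2a and 3.96 (SE 1.19, adjusted p = 0.0244) in DN2b. The call in DN2b was lost without DN2b rep 2 (log2FC 0.29, adjusted p = 0.892) and also without IgG D1 (adjusted p = 0.0539) or IgG R1 (adjusted p = 0.0591), and it was kept in 13 of 20 alternatives.

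*Dll4* counts were 1, 0, 1 and 2 in IgG D1, D2, R1 and R2, so all controls were at the limit of detection. The DN libraries, rep 1 before rep 2, held 0 and 21 counts (DN1), 4 and 6 (DN2a), and 0 and 50 (DN2b), or 0 and 3.98 CPM in DN2b. *Dll4* was thus above 3 counts in all 3 second replicates and in 1 of the 3 first replicates. The DN2b mean was at least 16.4-fold above a level of 3 counts in each control, and the fitted log2FC of 5.54 (SE 1.83), whose size depends on the prior count, had an adjusted p of 0.0355 (edgeR). The reads in DN2b were those of rep 2 alone, the groups overlapped, and the call was kept in 9 of 17 alternatives and lost without any 1 of the 4 controls (adjusted p of 0.0652 to 0.0852). *Dll4* reached 1 CPM only in DN1 rep 2 and DN2b rep 2, so it passed the filter through the libraries where it was high, and without either of them it was not tested. In DN1 and DN2a the adjusted p was 0.162 and 0.265. *Dll1* was sparse, with 1, 6, 2 and 1 counts in the controls and, for rep 1 and rep 2, 0 and 7 (DN1), 3 and 0 (DN2a), and 0 and 14 (DN2b). It reached 1 CPM in 1 library, missed the filter of 1 CPM in at least 2 libraries, and had adjusted p of 0.795, 0.805 and 0.317 over IgG in a fit without that filter. *Dll1* and *Dll4* share exon sequence with annotated transcripts on the opposite strand, and the strand setting of the counting is not given in the sources used here.

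The ligand genes and *Notch4* were highest among the DN libraries in DN2b rep 2 and, within the stage, higher in DN1 rep 2 than in DN1 rep 1. The same libraries held more reads of several endothelial and stromal genes. *Cdh5*, which encodes VE-cadherin, had 0 and 94 counts in DN1 rep 1 and rep 2, 13 and 15 in DN2a, 2 and 170 in DN2b, and 3 to 15 in the controls. *Col3a1*, a fibrillar collagen gene, had 0 and 123, 32 and 12, and 2 and 326 counts in the DN libraries and 0 in each control, and *Cxcl12* had 80 counts in DN2b rep 2 and at most 20 elsewhere. Of the 6 endothelial and 6 stromal markers, 3 (*Cdh5*, *Kdr* and *Tek*) and 5 (*Col1a1*, *Col1a2*, *Col3a1*, *Cxcl12* and *Pdgfra*, the last with at most 8 counts) were highest in DN2b rep 2 and higher in DN1 rep 2 than in DN1 rep 1. The other 4 did not follow that order. *Emcn* had at most 2 counts in any library, and *Pdgfrb* (42.5 to 153 CPM) and *Pecam1* (63.1 to 123 CPM) were abundant in every DN library. The 6 endothelial markers summed to 153 to 155 CPM in DN1, 95.3 to 119 in DN2a, 86.6 to 158 in DN2b and 42.4 to 155 in IgG, with 4 to 5 of the 6 above 3 counts in each library. The 6 stromal markers summed to 105 to 180 CPM in DN1, 50.1 to 57.9 in DN2a, 44.9 to 137 in DN2b and 1.23 to 4.46 in IgG. The part of such RNA in the ligand levels was not tested.

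**Figure D3:**
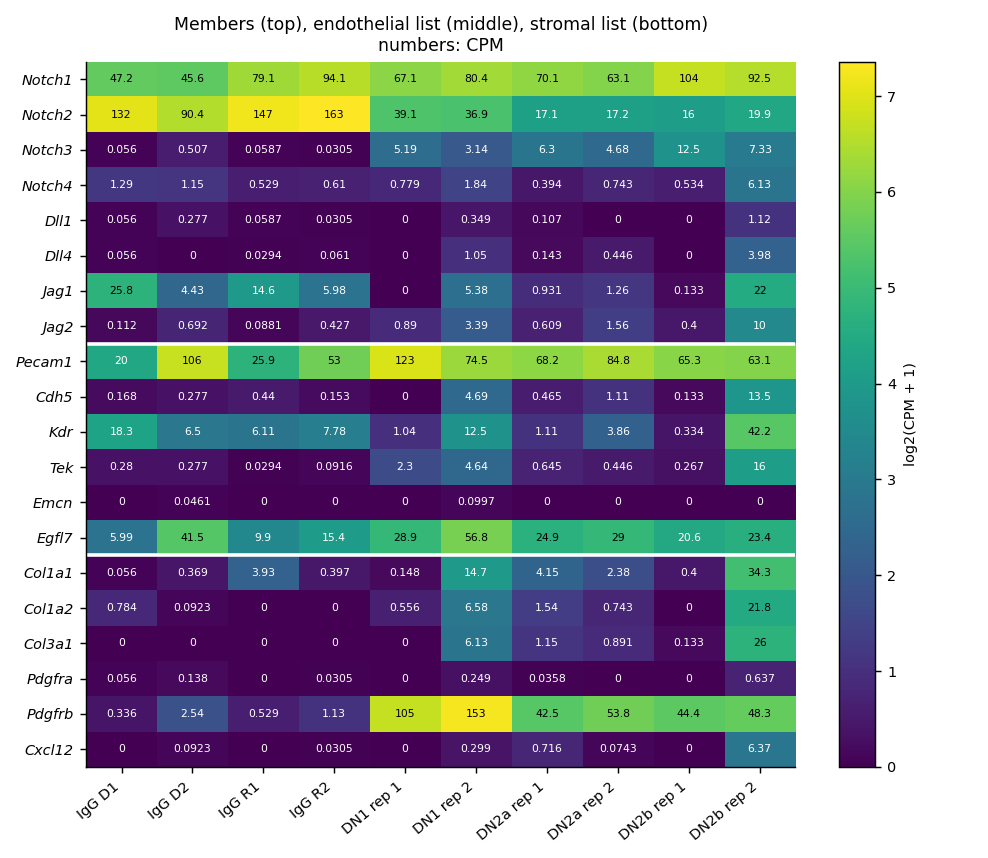
Heat map of the 8 members (top), 6 endothelial markers (middle) and 6 stromal markers (bottom) in each library, colored by log2(CPM + 1) with the CPM printed in each cell. *Cdh5*, *Tek*, *Kdr*, *Col1a1*, *Col1a2*, *Col3a1* and *Cxcl12* are highest in DN2b rep 2, where *Jag2*, *Dll4*, *Dll1* and *Notch4* are highest too, whereas *Notch3* is lower there than in DN2b rep 1 (7.33 against 12.5 CPM).

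Summed per length, the 4 ligands reached 4.65, 1.002, 2.64 and 1.17 CPM per kb in IgG D1, D2, R1 and R2. The DN libraries, rep 1 before rep 2, reached 0.174 and 2.0 (DN1), 0.353 and 0.649 (DN2a), and 0.102 and 7.26 (DN2b) CPM per kb. The 3 first replicates lay below all controls. Among the second replicates, DN2a lay below all controls, DN1 within their range and DN2b above it. *Jag1* made up 78.8% to 98.9% of the ligand sum in IgG and 0% to 54.0% in the DN libraries.

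Against IgG, *Notch2* and *Notch3* were called in both DN1 and DN2a, 2 of the 7 members tested, and 4 members in DN2b, these and *Dll4* and *Jag2*. Of all 12221 genes tested, 31.4%, 45.5% and 42.5% were called in DN1, DN2a and DN2b, and against this background the members' counts are no result about the family as a group. By size alone, with no p, 4 members had a log2FC of 2 or more in size in each of the 3 comparisons, beside 19.8%, 24.3% and 23.8% of all genes. The 3 comparisons share the 4 IgG libraries. The median log2FC of the 7 members was 0.55, 0.00 and 1.90, beside 0.01, -0.05 and -0.05 for all genes. The 1.90 in DN2b is the value of *Notch4* and rested on DN2b rep 2, and without that library the median of the 6 members then tested was -0.22. With scaling to library size only, the median of all genes in DN1 over IgG moved to 0.27, and the calls of *Notch2* (log2FC -1.57) and *Notch3* (log2FC 5.04) were kept.

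**Figure D4:**
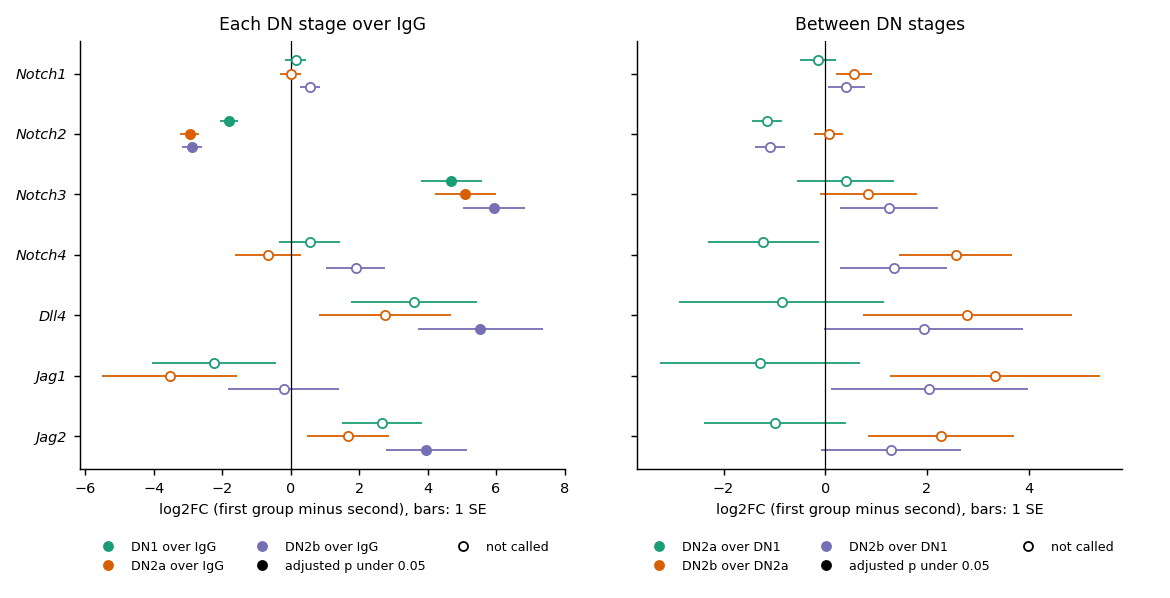
The log2FC of the 7 tested members with bars of 1 SE, for each DN stage over IgG (left) and between DN stages (right), with filled points for an adjusted p under 0.05 and open points for the rest. *Notch2* lies at -1.81 to -2.95 and *Notch3* at 4.70 to 5.94 over IgG, *Dll4* and *Jag2* are filled in DN2b over IgG, and no point is filled between DN stages.

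Between DN stages no member passed. In DN2a over DN1, 0.401% of all genes were called, and in DN2b over DN1 1.91%. In DN2b over DN2a 0% were called, against 335 genes at an unadjusted p under 0.05 and 29 by DESeq2. By size alone, 0, 4 and 1 members had a log2FC of 2 or more in size in DN2a over DN1, DN2b over DN2a and DN2b over DN1, beside 9.23%, 5.32% and 10.5% of all genes. The 4 in DN2b over DN2a (*Notch4*, *Dll4*, *Jag1* and *Jag2*) rested on DN2b rep 2, and without it 1 of the 6 members then tested, *Jag1*, was past that size, in the other direction (log2FC -2.98). Each of the 3 comparisons had 1 member at an unadjusted p under 0.05, and DESeq2 called 1, 1 and 0 members in DN2a over DN1, DN2b over DN1 and DN2b over DN2a. Of 12221 genes, 1328 in DN2a over DN1 and 1694 in DN2b over DN1 had an unadjusted p under 0.05. DESeq2 called 474 and 822 genes in these 2 comparisons. The member called by DESeq2 was *Notch2*, with adjusted p of 0.0181 in DN2a over DN1 and 0.0255 in DN2b over DN1. Without IgG D2 edgeR called it too in DN2b over DN1 (adjusted p = 0.0477). By edgeR with all libraries its log2FC was -1.15 (SE 0.29, adjusted p = 0.171) and -1.08 (SE 0.29, adjusted p = 0.118), and within the earlier and the later year the log2 ratio of CPM was -1.19 and -1.10 in DN2a over DN1 and -1.29 and -0.89 in DN2b over DN1. The 7 macrophage and monocyte markers summed to 36.5 to 65.8 CPM in DN1 and 9.31 to 44.4 CPM in the DN2 libraries, with *Csf1r* at 18.3 and 23.8 CPM in DN1 and at most 0.149 CPM in DN2. *Emr1* and *Mrc1* ran the other way, with every DN2 library above both DN1 libraries. *Emr1* had 3.08 and 0.199 CPM in DN1 and 4.55 to 39.9 CPM in DN2. The part of these markers in the level of *Notch2* was not tested. *Notch3* had a log2FC of 1.25 (SE 0.96, adjusted p = 0.631) in DN2b over DN1, and 1.27 and 1.22 within the years. *Notch1* had a log2FC of 0.56 (SE 0.36, adjusted p = 1) in DN2b over DN2a, and 0.57 and 0.55 within the years. For *Notch2* the unadjusted p was 0.00309 in DN2a over DN1 and 0.0044 in DN2b over DN1 (edgeR), and it was the adjustment across 12221 genes that it missed. *Notch4* and *Jag2* had opposite directions in rep 1 and rep 2 in DN2b over DN1, with log2 ratios of -0.54 and 1.73 for *Notch4* and -1.15 and 1.57 for *Jag2*.

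The genes that act on the receptors were read from 8 lists of 64 genes, of which 57 were tested. Of all genes, 14.3%, 21.2% and 19.9% were called higher over IgG in DN1, DN2a and DN2b and 17%, 24.3% and 22.5% lower. Of 10 genes for receptor cleavage, 8 were lower and 2 not called over IgG in each DN stage, with a median log2FC of -1.17, -1.31 and -1.40. *Furin*, the protease of the first cleavage, fell from 139 ± 75.7 CPM (SD, n = 4) in IgG to 28.6 ± 7.75, 8.09 ± 1.06 and 13.5 ± 9.28 in DN1, DN2a and DN2b (SD, n = 2 each), with log2FC of -2.28, -4.10 and -3.36 (adjusted p = 0.0173, 0.00139 and 0.00295). *Psen2*, a catalytic subunit of gamma-secretase, fell with log2FC of -1.86, -3.23 and -3.18 (adjusted p = 0.0168, 0.00139 and 0.00155). *Aph1c*, a near copy of *Aph1b* whose separate counts are uncertain, fell from 25.0 ± 12.0 CPM to 0.822 ± 0.742, 0.881 ± 0.435 and 1.203 ± 0.664 CPM. Over the alternatives 2 to 8, 5 to 9 and 5 to 8 genes of this list were lower, and none was higher in any.

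Of 7 tested genes for receptor glycosylation, 1 was higher in each stage and 2, 4 and 4 were lower in DN1, DN2a and DN2b (0 to 2, 1 to 5 and 1 to 5 over the alternatives, and 1, 2 and 3 with scaling to library size only), and 0 to 1, 1 and 0 to 1 were higher over the alternatives. The Fringe genes, whose enzymes extend the O-fucose of Notch and shift its preference among ligands, moved in different directions. *Mfng* rose from 20.1 ± 6.17 CPM in IgG to 61.1 ± 19.7, 67.1 ± 4.77 and 53.2 ± 6.15 (log2FC 1.60, 1.74 and 1.40; adjusted p = 0.00522, 0.00222 and 0.00649), a call lost in at least 1 alternative in DN1 and in DN2b. *Lfng* fell from 63.4 ± 26.8 CPM to 18.9 ± 3.32, 27.9 ± 6.29 and 26.2 ± 0.330 (log2FC -1.75, -1.19 and -1.27; adjusted p = 0.0092, 0.0264 and 0.0217). *Rfng* had log2FC of -0.06, -1.19 and -1.59 and fell in DN2a and DN2b (adjusted p = 0.0466 and 0.0181), the former call being lost with library size only (adjusted p = 0.0813).

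Among 10 genes for receptor trafficking and turnover, 1 was higher in each stage and 3, 3 and 2 were lower (0 to 1 higher and 1 to 3 lower in each over the alternatives). *Nedd4*, a ubiquitin ligase, rose from 98.2 ± 96.3 CPM to 468 ± 63.7, 509 ± 7.40 and 496 ± 42.9 (log2FC 2.25, 2.37 and 2.34; adjusted p = 0.0247, 0.0138 and 0.0160), a call lost in at least 1 alternative in each stage. *Numb*, an endocytic adaptor that inhibits Notch, fell from 56.2 ± 13.7 CPM to 15.1 ± 4.39, 8.80 ± 1.53 and 14.2 ± 6.90, and *Dtx4*, a Deltex ligase, fell with log2FC of -2.42, -1.97 and -1.79. Of 4 tested genes for ligand endocytosis, 2, 1 and 1 were lower: *Epn1*, an epsin, in all 3 stages (log2FC -0.87, -1.35 and -1.35) and *Mib2*, a Mind bomb ubiquitin ligase, in DN1 (log2FC -1.10, adjusted p = 0.0276). Both calls in DN1 were lost with library size only (adjusted p = 0.161 for *Epn1* and 0.0996 for *Mib2*), and those of *Epn1* in DN2a and DN2b were kept. Of the 2 tested genes among 5 further ligands, *Dner* was called lower in all 3 stages and *Cntn1* higher in DN2a and DN2b. Both were sparse: *Dner* had 1.40 ± 0.933 CPM in IgG (SD, n = 4) and DN means of at most 0.0748 CPM, and *Cntn1* had a mean of 0.0601 CPM in IgG and 0.958 ± 0.620 and 1.42 ± 0.0226 CPM in DN2a and DN2b (SD, n = 2 each), so the low means were under the level of 3 counts. Over the alternatives 0 to 1 of this list was lower in each stage, and 0, 0 to 2 and 0 to 2 were higher. *Dll3* had 2 to 6 counts in the controls and 0 in each DN library.

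In the nucleus, 2, 4 and 3 of 9 genes for the RBPJ activation complex were lower over IgG and 0, 1 and 1 were higher, and *Rbpj* was not called in any stage. With library size only, 0, 3 and 2 were lower and 0 higher, and over the alternatives 0 to 3, 1 to 5 and 1 to 4 were lower. *Maml1*, a coactivator that bridges the complex, fell from 39.3 ± 6.16 CPM to 19.1 ± 7.74, 9.22 ± 0.0827 and 11.5 ± 1.997, and the acetyltransferase gene *Ep300* fell with log2FC of -1.38, -2.43 and -2.09 (adjusted p = 0.0491, 0.00442 and 0.00862). With library size only the DN1 calls were lost (adjusted p = 0.120 for *Maml1* and 0.118 for *Ep300*). *Crebbp*, its relative, was called lower in DN2a (log2FC -2.31, adjusted p = 0.0407; 0.0574 with library size only). Of 8 corepressor genes, 1, 3 and 3 were lower, among them *Spen* in DN2a and DN2b (log2FC -1.78 and -1.77), and 0, 1 and 1 were higher, *Hdac1* in DN2a and DN2b (log2FC 0.87 and 0.79). With library size only, 0, 0 and 2 were lower and 1 was higher in each stage, and *Spen* lost both calls (adjusted p = 0.0541 and 0.0591). Over the alternatives 0 to 2, 0 to 3 and 0 to 4 corepressor genes were lower and 0 to 1 was higher in each stage, so the call of *Hdac1* was lost in at least 1 alternative in DN2a and in DN2b.

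Of the 8 pathway lists, the direct targets had the largest median log2FC over IgG in size. All 7 tested of 8, among them *Il2ra* of the gate, rose over IgG in every stage, with a median log2FC of 5.63, 6.08 and 6.32, and *Hes5* had too few reads to test. Over the alternatives 5 to 7 were called higher in each stage and none lower. *Hes1*, a transcriptional repressor and classic target, rose from 0.163 ± 0.1253 CPM to 47.7 ± 7.64, 42.7 ± 8.16 and 55.9 ± 15.2, and *Dtx1*, a Deltex ligase, rose from 0.376 ± 0.282 CPM to 66.2 ± 26.5, 52.5 ± 4.04 and 85.1 ± 17.7. In DN2b over DN1 the log2FC was 0.23 (SE 0.48, adjusted p = 0.877) for *Hes1* and 0.36 (SE 0.63, adjusted p = 0.850) for *Dtx1*. Between DN stages, 1 of the 57 pathway genes passed in DN2a over DN1 and in DN2b over DN1, *Il2ra*, whose product was used for the gate, with 7 and 8 genes at an unadjusted p under 0.05 and 1 and 2 by DESeq2. In DN2b over DN2a 0 passed, 0 had an unadjusted p under 0.05 and DESeq2 called 0.

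The genes with profiles most like those of the receptors were found by the root mean square difference of centered log2(CPM + 1) over the 10 libraries, among genes with a mean of at least 5 CPM. For *Notch1* they were *Setd7* (0.158), *Lrrc47* (0.191) and *Aak1* (0.203), against a median difference of 0.612 over 9753 genes. For *Notch2* they were *Synj1* (0.209), *Acap2* (0.249) and *Elmsan1* (0.253; median 1.37), and *Synj1* had mean levels of 80.5, 18.3, 9.35 and 11.1 CPM in IgG, DN1, DN2a and DN2b. For *Notch3* they were *Ralgps2* (0.315), *Jakmip1* (0.343) and *Xrcc6* (0.370; median 1.41 over 9754 genes), and *Jakmip1* had mean levels of 0.234, 7.99, 7.27 and 10.9 CPM. The nearest genes were *Tcf4* for *Notch4* (0.362), *Dock4* for *Jag1* (0.420) and *Pde4b* for both *Dll4* (0.360) and *Jag2* (0.521). The median differences were 0.866, 1.75, 0.870 and 1.10 in that order. The profiles of *Notch2* and *Notch3* differ mainly between IgG and DN. *Notch4*, *Dll4* and *Jag2* were highest in DN2b rep 2 and *Jag1* in IgG D1, so their likenesses lean on single libraries.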

How the data were processed

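RNA-seq counts of 10 libraries were analysed (IgG, n = 4; DN1, DN2a and DN2b, n = 2 each), grouped by the differentiation label. RNA was prepared with a TruSeq Stranded Total RNA kit. The authors aligned 36 bases per read to mm10 with TopHat and tallied them on genes with htseq-count (intersection-strict), and the deposited values are raw counts per gene symbol without normalization. The submitters' processing notes list TopHat2 2.12, HTSeq 0.6.1p1 and Cufflinks 2.2.1, and the gene annotation and the strand setting are not given in the sources used here. Summary lines of htseq-count, 20.5% to 41.0% of tallied reads and mostly reads aligned to more than 1 place (16.4% to 30.1%), were dropped before library sizes were summed.

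The members and all gene lists were chosen with earlier results of these data known, so counts over a list are descriptions. The 12221 genes that reached 1 CPM in 2 or more libraries were fitted in 1 model with 4 groups by edgeR 4.0.16 (quasi-likelihood test, TMM, prior count 0.125, common dispersion 0.189) in R 4.3.3, and called at an adjusted p under 0.05 (Benjamini-Hochberg, all tested genes). SEs were taken as |log2FC| over the root of the F statistic. Named pathway genes were, per list, at most 3 called genes with the largest log2FC and 5 CPM or more on average in the group with the higher level; *Dner*, *Cntn1*, *Dll3*, *Rbpj* and *Hes5* were added after values were seen. Coordinates and lengths are those of GENCODE vM21 on mm10, with the principal transcript for length, and promoters those of RefSeq. The ratio test was an exact permutation over libraries. Counting intervals are not given, and limits of 3 counts cover counting error only.

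The year in the labels pairs DN2a with DN2b, whose libraries share dates, and less clearly DN1, whose dates differ by days. Deviations of same-year libraries from stage means correlated across genes at 0.451 (DN2a and DN2b), 0.190 (DN1 and DN2b) and 0.0629 (DN1 and DN2a), and genes are not independent replicates. Alternatives were DESeq2 1.42.0, library size only, no filter, filterByExpr, only the groups compared, pairs of control libraries, each library left out, a year block, a prior count of 2 and a log2FC of 2 without a p. The prior count of 2 changes the log2FC and not the p of edgeR, so its calls are those of the main fit. The DN libraries of the earlier year are rep 1 and those of the later year rep 2. Chosen after seeing the data were the control pairs D1 and R1 and D2 and R2, the fit without the second replicates of DN1 and DN2b, the ratio averaged by year, and merged-exon lengths. Scripts were tested on simulated counts. Summaries and figures were made in Python 3.11.15 (matplotlib 3.10.9, numpy 2.4.6, scipy 1.17.1, pandas 2.3.3).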

Additional observations from a re-analysis of the deposited data

Results flagged for a closer look

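In the 4 IgG libraries, 9 values were checked for a sample far from the others (the 8 members and the ratio of *Notch1* to *Notch2*), and chance alone flags about 1 in 20 such groups. *Notch3* stood at 0.507 CPM (11 counts) in IgG D2, against 0.0305 to 0.0587 CPM in the other libraries, with a gap of 0.941 of the whole range. *Dll1* stood at 0.277 CPM (6 counts) in the same library, with a gap of 0.885 of the range. For 4 samples a gap above 0.829 of the range counts as far, and both values rest on few reads.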

How the results depend on the processing

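*Notch2* and *Notch3* were called over IgG in each DN stage, in the same direction, in all 21 alternative fits, while *Notch2* in DN1 (log2FC -1.81) missed a log2FC of 2 in size. The 4 members called in DN2b over IgG were 2 with only the groups compared, with controls R1 and R2 and with controls D2 and R2, and 2 to 5 with each library left out. By a log2FC of 2 without a p, 4 members passed in DN1 and in DN2a over IgG, 4 in DN2b over DN2a and 1 in DN2b over DN1. DESeq2 called 1 member in DN2a over DN1 and 1 in DN2b over DN1, and leaving out each library gave 0 to 1 in the latter. Controls R1 and R2 turned the log2FC of *Notch1* to -0.24 in DN1 and -0.38 in DN2a and that of *Jag1* in DN2b to 0.13; controls D2 and R2 gave -0.079 for *Notch1* in DN2a and 1.08 for *Jag1* in DN2b, and DESeq2 gave -0.040 for *Notch1* in DN2a. With the year as a replicate block, 0 members were called between DN stages and no call changed, but *Dll4* and *Jag1* turned to 0.82 and 1.88 in DN2a over DN1. Without the second replicates of DN1 and DN2b, *Jag1* turned to 7.70 in DN2a over DN1 and -2.98 in DN2b over DN2a, *Jag2* to 0.26 in DN2a over DN1, -1.40 in DN2b over DN2a and -1.14 in DN2b over DN1, and *Notch2* to -0.10 in DN2b over DN2a. The cause was not tested.

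With each library left out, log2FC values that changed sign ranged as follows. *Notch1* in DN2a over IgG ranged from -0.14 to 0.21 and *Notch2* in DN2b over DN2a from -0.10 to 0.21. *Notch4* ranged from -0.18 to 1.05 in DN1 over IgG, -0.72 to 2.79 in DN2b over IgG, -0.062 to 3.45 in DN2b over DN2a and -1.28 to 2.23 in DN2b over DN1. *Jag1* ranged from -6.51 to 0.80 in DN2b over IgG, -2.30 to 7.62 in DN2a over DN1, -2.98 to 4.33 in DN2b over DN2a and -4.27 to 10.97 in DN2b over DN1, and *Jag2* from -1.80 to 0.26, -1.40 to 3.23 and -2.40 to 2.55 in the last 3. The log2 difference of the *Notch1* to *Notch2* ratio was 3.02 with controls D1 and D2 and 2.63 with R1 and R2, both at p = 0.0714 by the exact permutation test, the smallest that 6 against 2 libraries allow. With the DN libraries averaged by year, chosen after seeing the data, it was 2.83 at p = 0.133 by the same exact permutation test, the smallest that 2 against 4 allow. Without division by length, receptors summed to 200.6, 117, 89.8 and 130 CPM and ligands to 13.2, 5.53, 2.53 and 18.8 CPM in IgG, DN1, DN2a and DN2b. The receptor sum in DN1 was 13.8 CPM per kb with library size only, where both DN1 libraries lay above IgG D2. With merged exons the sums were 9.39, 7.02 and 10.2 in DN1, DN2a and DN2b.

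Calls over all genes, 3834, 5559 and 5190 over IgG in DN1, DN2a and DN2b, were 2329 (DN1) and 3264 (DN2b) with controls D1 and D2, and 1888, 3596 and 3134 with D2 and R2. Without these 2 second replicates, 1855 were called in DN1. Between stages, 49 (DN2a over DN1), 0 (DN2b over DN2a) and 233 (DN2b over DN1) were 474, 29 and 822 by DESeq2, 101, 1 and 282 without the filter, 25 and 80 (DN2a and DN2b over DN1) with only the groups compared, and 255, 0 and 137 without the same 2 second replicates. In the DN libraries alone, the block gave 58 in DN2a over DN1 against 32 without it. Each library left out gave 1867 to 4161, 2686 to 6016 and 2683 to 5674 over IgG, and 0 to 229, 0 to 1 and 51 to 383 between stages. With library size only, 61.4% of the calls in DN1 over IgG were higher, against 45.7% with TMM, and the median of all genes moved from -0.03 to -0.23 in DN2a over DN1. Depth limits *Dll1*, *Dll4* and, in the controls, *Notch3*.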

Other observations

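Other cell type markers differed between the groups and are given as values. The 6 mast cell markers summed to 10.9 to 96.2 CPM in IgG, 510 to 1915 in DN1, 376 to 573 in DN2a and 257 to 455 in DN2b. Nearly all of the DN2 sums was *Cpa3*, with 371 and 571 CPM in DN2a and 257 and 454 CPM in DN2b. *Tpsb2* and *Tpsab1* ran the other way and were higher in every IgG library than in any DN library. The 6 dendritic cell markers summed to 33.7 to 380 CPM in IgG, 61.9 to 207 in DN1, 32.2 to 43.2 in DN2a and 7.88 to 13.6 in DN2b. The 7 megakaryocyte and erythroid markers summed to 265 to 1084 CPM in IgG, 126 to 517 in DN1, 119 to 145 in DN2a and 19.9 to 27.5 in DN2b, and the 5 B cell markers to 5.78 to 19.8, 8.49 to 12.5, 5.87 to 10.03 and 6.01 to 6.45 CPM. Of the megakaryocyte and erythroid sums in DN2a, *Itga2b* alone held 117 and 139 CPM.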
